A study of Homo sapiens with 2 samples.

Results

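A set of long noncoding RNAs, named as abundant, was described in MDA-MB-231, an established triple-negative breast cancer cell line. The RNAs were listed by name, with earlier results of these data known, and no measured value enters the rule: MALAT1, NEAT1, TUG1, KCNQ1OT1, LINC00657, H19, HOTAIR, MIR22HG and MIR31HG, 9 in all. Of these, 7 were analysed, among 29452 gene entries in the expression table. LINC00657 was read from the entry under its current symbol, NORAD. HOTAIR and MIR31HG were not analysed here. The table holds 1 library from cells labelled CDK14-sh, a short hairpin RNA against the cyclin-dependent kinase CDK14, and 1 library from cells labelled scramble control. Both came from the same line, and both were made from 1 ug of total RNA with a stranded mRNA kit. The labels give neither the hairpin sequence nor the time after knockdown, and they do not say whether either culture was a single clone. With 1 library per group there was no estimate of the spread between cultures, so no difference was tested and each ratio compares these libraries only.

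Levels are in RPKM, the reads on an entry scaled to its exon length and to the reads of the library. Whole reads could be recovered from the values. Summed over all entries, they totalled 15478156 in the CDK14-sh library and 17217564 in the scramble library. A read on overlapping entries may count more than once in these sums, and shares of reads are shares of them. Bracketed ranges are 95% intervals, exact (Clopper-Pearson) except where ratios between members are compared, which have approximate intervals on the log scale. They cover only the counting error of reads taken as independent, and leave out the spread between cultures. Copies made by PCR are not independent molecules, so the ranges may be too narrow even for counting error. CDK14 itself was at 0.548 RPKM (58 reads) in the CDK14-sh library and 2.48 RPKM (292 reads) in the scramble library, 4.53-fold lower. Of 10 markers of mesenchymal breast cancer lines, all 10 reached 1 RPKM, with summed levels of 1122 and 1151 RPKM. Within that sum PLAU was 2.56-fold higher and MSN 2.56-fold lower in the CDK14-sh library. The summed markers of leukocytes, 0.777 and 0.698 RPKM, of endothelium, 1.65 and 1.86 RPKM, and of fibroblasts, 2.03 and 1.78 RPKM, were low in both, and the fibroblast genes LUM and DCN had 0 reads. Of 8 luminal breast markers 4 reached 1 RPKM, with sums of 41.5 and 65.5 RPKM, of which KRT19 made 30.4 and 55.3 RPKM. Mitochondrial entries took 17.1% of counted reads in the CDK14-sh library and 14.5% in the scramble library.

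These RNAs act without being translated, and many stay in the nucleus. MALAT1 collects in nuclear speckles, the stores of splicing factors, while NEAT1 is the scaffold of paraspeckles, bodies built with the proteins NONO, SFPQ and PSPC1. NORAD lies mainly in the cytoplasm and carries many binding elements for the Pumilio proteins, which repress messenger RNAs. TUG1 has been tied to Polycomb repression and MIR22HG is the precursor of the microRNA miR-22. KCNQ1OT1 and H19 are imprinted RNAs of chromosome band 11p15.5, KCNQ1OT1 silencing its neighbours in cis and H19 carrying miR-675.

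The sequences that mark out the strongest members come from the transcripts of GENCODE release 29 on GRCh38. The first is a stretch of NORAD, chr20:36049493-36049730 on the minus strand, that holds 3 Pumilio elements, in capitals. It is shown because repeated elements set NORAD apart from the other RNAs in the count given further on.
NORAD: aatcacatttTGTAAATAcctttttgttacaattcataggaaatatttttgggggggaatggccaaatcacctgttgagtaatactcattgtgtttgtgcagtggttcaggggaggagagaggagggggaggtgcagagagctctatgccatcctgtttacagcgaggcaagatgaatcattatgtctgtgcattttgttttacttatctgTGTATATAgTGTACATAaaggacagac

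MALAT1 and the long form of NEAT1 do not end in a tail added by poly(A) polymerase. RNase P cuts each RNA just before a tRNA-like fold, and the new end is protected by a triple helix of U-rich stretches with an A-rich tract. The last 100 bases before that place are chr11:65506017-65506116 for MALAT1 and chr11:65445441-65445540 for NEAT1, both on the plus strand. Capitals mark the longest stretches the pair share, of 16 and 11 bases.
MALAT1 end: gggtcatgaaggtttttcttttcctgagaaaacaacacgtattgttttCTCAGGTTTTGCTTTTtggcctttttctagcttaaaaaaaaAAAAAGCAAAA
NEAT1 end: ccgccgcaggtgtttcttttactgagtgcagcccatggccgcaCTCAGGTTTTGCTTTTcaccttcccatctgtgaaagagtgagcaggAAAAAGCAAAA
The longer shared stretch ends 36 bases before the end in MALAT1 and 41 bases before it in NEAT1, and the A-rich stretch is the last part of both. In MALAT1 the tRNA-like piece follows directly, at chr11:65506117-65506173, and is shown because a separate entry of the table counts reads over it.
MALAT1 tRNA-like piece: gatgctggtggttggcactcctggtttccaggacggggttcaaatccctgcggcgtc

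The microRNAs of miR-22 lie in an exon of MIR22HG at chr17:1713914-1713935 and chr17:1713952-1713973 on the minus strand. Their mature sequences from RefSeq on GRCh38.p14 have the seed, bases 2 to 8, in capitals. They share no seed.
hsa-miR-22-3p: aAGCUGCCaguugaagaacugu
hsa-miR-22-5p: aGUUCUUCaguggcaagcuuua

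NORAD had the highest level per base of these RNAs in both libraries. The entry (ENSG00000260032.1, chr20:36045622-36050960, minus strand) is a single exon of 5339 bases that shares no exon base with another entry. Its level was 155 RPKM (153 to 158, 12836 reads) in the CDK14-sh library and 102 RPKM (100.4 to 105, 9415 reads) in the scramble library. The CDK14-sh library was the higher, by 1.52-fold (1.48 to 1.56), and the counting intervals did not overlap. In bulk RNA, fewer cells that make an RNA and less of it per cell cannot be told apart, here and for every ratio that follows. NORAD alone took 0.0829% of the reads counted over all entries in the CDK14-sh library and 0.0547% in the scramble library. Among 898 long noncoding entries that share no exon base with a protein-coding entry it ranked first in both.

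MALAT1 (ENSG00000251562.8, chr11:65497762-65506516, plus strand, 8755 exon bases) came next and differed the other way. Its level was 37.0 RPKM (36.0 to 38.1, 5016 reads) in the CDK14-sh library and 54.4 RPKM (53.2 to 55.5, 8193 reads) in the scramble library, 1.47-fold lower (1.42 to 1.52) in the former. The intervals of the levels did not overlap. Its rank among the 898 long noncoding entries was 5 in the CDK14-sh library and 3 in the scramble library.

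NEAT1 (ENSG00000245532.8, chr11:65422774-65445540, plus strand), whose gene lies on the same chromosome arm as MALAT1, spans 22767 exon bases in the table. Its level was 21.4 RPKM (20.9 to 21.9, 7537 reads) in the CDK14-sh library and 20.4 RPKM (19.98 to 20.9, 8005 reads) in the scramble library, a ratio of 1.05 (1.01 to 1.08). The interval left out 1 by little, and the sign of the difference flipped when levels were rescaled to TPM, which gives every library the same summed level per base, where its log2 ratio was -0.09. That length covers the long form, so a level per base mixes both forms.

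TUG1 (ENSG00000253352.9, chr22:30970677-30979395, plus strand, 6793 exon bases) stood at 16.3 RPKM (15.6 to 17.1, 1717 reads) in the CDK14-sh library and 16.0 RPKM (15.3 to 16.8, 1875 reads) in the scramble library. These intervals overlapped and the ratio was 1.02 (0.954 to 1.09). MIR22HG (ENSG00000186594.14, chr17:1711493-1717174, minus strand, 2986 exon bases) was at 4.46 RPKM (3.87 to 5.11, 206 reads) and 4.30 RPKM (3.75 to 4.90, 221 reads), a ratio of 1.04 (0.853 to 1.26). The precursor of miR-22 therefore had overlapping intervals as well, and its smaller number of reads left the wider range. The mature microRNA is not measured by such libraries.

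The name "abundant" did not hold for the imprinted RNAs. KCNQ1OT1 (ENSG00000269821.1, chr11:2608328-2699994, minus strand) is a single entry of 91667 bases with 124 reads in each library, which gave 0.0874 RPKM (0.0727 to 0.104) in the CDK14-sh library and 0.0786 RPKM (0.0653 to 0.0937) in the scramble library. It lay at percentiles 24.8 and 24.3 of all entries, and the intervals overlapped. H19 (ENSG00000130600.18, chr11:1995163-2001470, minus strand, 2825 exon bases) had 0 reads in both libraries, so no ratio was formed. A count of 0 allows up to 3 reads, or 0.0686 RPKM in the CDK14-sh library and 0.0617 RPKM in the scramble library, counting error only. RNA of H19 was thus not detectable at this depth.

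**Figure D1:**
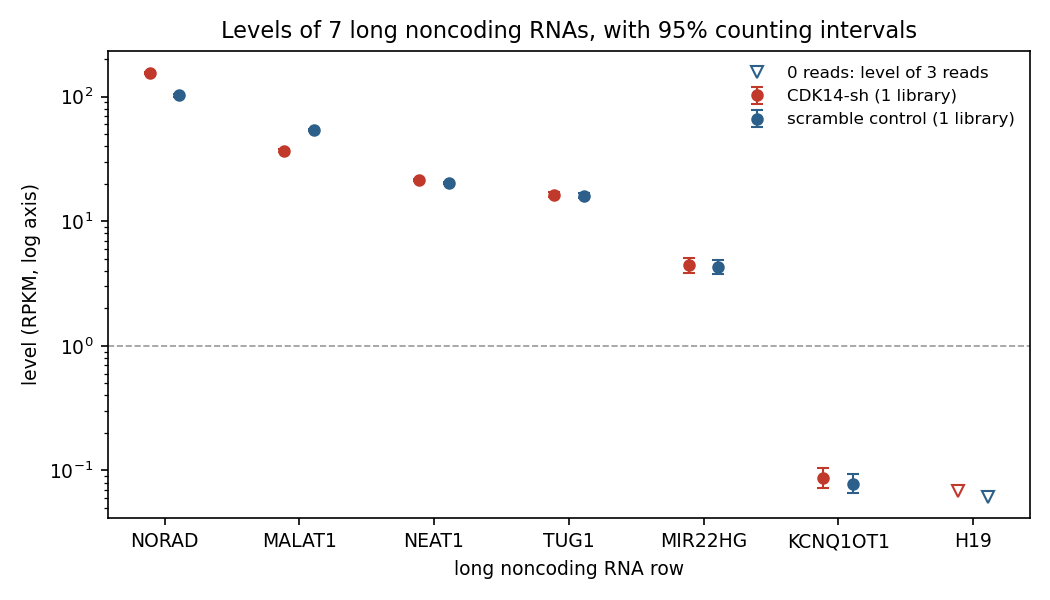
Level of each of the 7 RNAs in RPKM (log axis) in the CDK14-sh and scramble libraries, 1 library each, with bars for the 95% counting interval; H19, with 0 reads, is drawn at the level 3 reads would give. NORAD stands at 155 and 102 RPKM above MALAT1 at 37.0 and 54.4, and KCNQ1OT1 lies below 0.1 RPKM in both.

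The order of levels per base was NORAD, MALAT1, NEAT1, TUG1, MIR22HG, KCNQ1OT1 and H19 in each library. From NORAD down to KCNQ1OT1 the intervals of neighbours did not overlap, and H19, with 0 reads, stands last. The distances between neighbours differed most at the top of the order. NORAD was 4.20 times as high as MALAT1 in the CDK14-sh library and 1.88 times as high in the scramble library, and MALAT1 was 1.73 and 2.66 times as high as NEAT1. NEAT1 stood 1.31 and 1.27 times above TUG1, and TUG1 3.66 and 3.73 times above MIR22HG. Whether the mRNA kit captured MALAT1 and the long form of NEAT1, which lack an added poly(A) tail, as fully as NORAD was not tested.

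A ratio between members within a library does not depend on how the library was scaled. The NORAD to MALAT1 ratio was 2.23 times (2.13 to 2.33) as large in the CDK14-sh library as in the scramble library, the widest gap of the pairs formed from NORAD, MALAT1, NEAT1 and TUG1. NEAT1 over MALAT1 was 1.54 times (1.47 to 1.61) as large, and TUG1 over MALAT1 1.496 times (1.39 to 1.61). NORAD over NEAT1 was 1.45 times (1.39 to 1.51) as large, and NORAD over TUG1 1.49 times (1.39 to 1.60). TUG1 over NEAT1, at 0.973 times (0.904 to 1.05), was the pair whose interval held 1. So NORAD and MALAT1 each differed against NEAT1 and TUG1, in opposite directions, while those kept their proportion within counting error.

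These ratios were then read against the other entries. Differences are given as log2 ratios after adding 0.1 RPKM, which understates the change of low genes, and an entry was measured if it reached 1 RPKM in the higher library. Of the 7 RNAs, 5 were measured. None was 2-fold higher and none 2-fold lower (0 and 0), where 3.21% of all 14878 measured entries were higher and 3.47% were lower. Of the entries past 2-fold, 48.1% were higher, and under TPM, where 17068 entries reached the limit of 1, 35.1%. Among 465 measured long noncoding entries the shares were 4.52% and 2.37%. The log2 ratio of NORAD was 0.60, that of MALAT1 -0.55, that of NEAT1 0.07, that of MIR22HG 0.05 and that of TUG1 0.03, beside a median of 0.04 and quartiles of -0.22 and 0.29 over all measured entries. NORAD and MALAT1 thus lay outside the quartiles, and the other 3 inside.

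At a 1.5-fold threshold NORAD counted as higher, with 9.11% of all measured entries, and none of the RNAs as lower, with 9.55%. These calls turned with the scaling: under TPM, median centring and trimmed mean scaling NORAD was no longer past 1.5-fold, at 0.45, 0.56 and 0.56 on the log2 scale, and MALAT1 was 1.5-fold lower, at -0.71, -0.60 and -0.59. Neither was past 2-fold under any of these. Well-read entries were counted apart. Among the 3660 measured entries for which the higher library had 1000 reads or more, 2.76% were 1.5-fold higher and 8.22% were 1.5-fold lower, against 0.383% and 2.08% at 2-fold. Of these well-read entries 2.49% had a ratio above that of NORAD, and 9.32% had one below that of MALAT1. Among the long noncoding entries, 16.3% lay above NORAD and 9.68% below MALAT1. Both differences were inside the range that other entries showed.

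**Figure D2:**
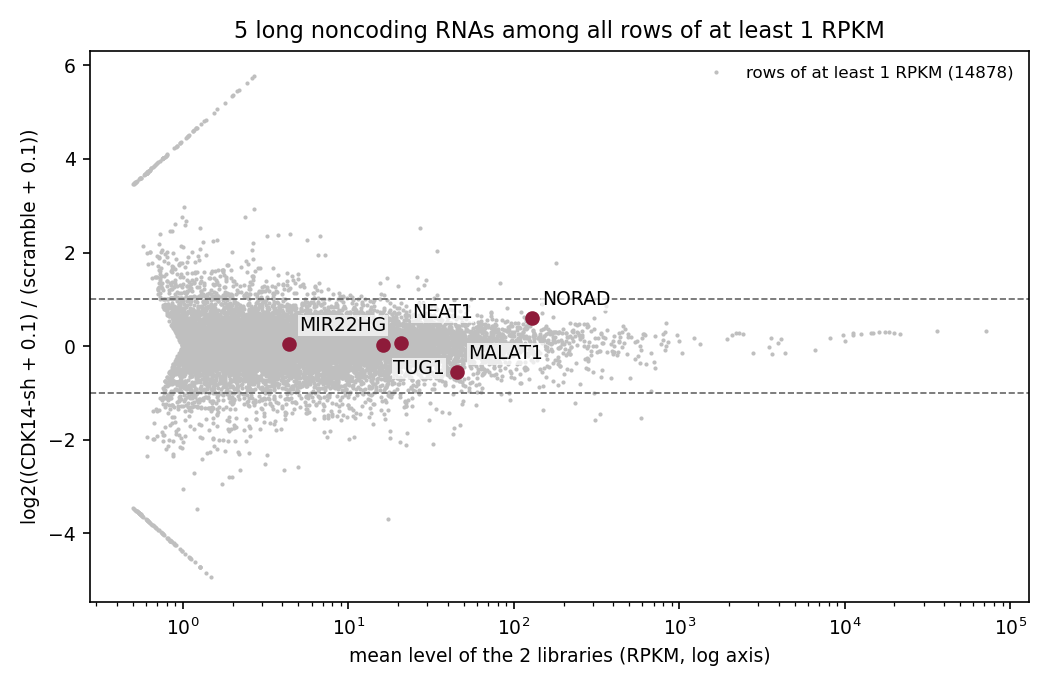
Log2 ratio of CDK14-sh over scramble (0.1 RPKM added) against mean level in RPKM (log axis) for all measured entries in grey, with the measured RNAs of the set marked. NORAD at 0.60 and MALAT1 at -0.55 lie inside 2-fold, and the slanting streaks at low level are entries with few reads or none in 1 library.

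The sign and rough size of the NORAD and MALAT1 ratios held under every rescaling tried. For NORAD the log2 ratio ranged from 0.45 to 0.64, and for MALAT1 from -0.71 to -0.51, over TPM, median centring, trimmed mean scaling and totals without mitochondrial reads. TPM shifted the median of all measured entries by -0.15. The small ratios of NEAT1, TUG1 and MIR22HG became negative under TPM, and that of TUG1 also under median centring and trimmed mean scaling, so no direction is given for them. The share of mitochondrial reads differed between the libraries, and its part in the ratios was tested no further than by this rescaling.

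The table also counts 15 shorter entries that share exon bases with 4 of the RNAs, and they show where along an RNA the reads fell. Of these, 11 reached 1 RPKM in the higher library. No such entry was 2-fold higher and 1 was 2-fold lower, beside the 3.47% of all measured entries. How strand and overlap were handled in counting is not given in the sources used here, so reads of entries on opposite strands cannot be told apart. A read that only touches a short entry may count there in full, which would raise its level per base.

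In NEAT1, 3 entries cover short stretches near the 5′ end, within the part that the short and the long form share. They bear the names NEAT1_1, NEAT1_2 and NEAT1_3 but are not the isoforms often given such names. NEAT1_1 (120 bases, starting 500 bases from the first base of the gene) was at 393 RPKM (730 reads) in the CDK14-sh library and 381 RPKM (788 reads) in the scramble library, 18.4 and 18.7 times the level of the whole entry. It held 9.69% and 9.84% of the NEAT1 reads in 0.527% of the length. NEAT1_3 was at 79.2 and 71.6 RPKM, and NEAT1_2 at 43.1 and 32.6 RPKM. The ratios were 1.03 (0.931 to 1.14) for NEAT1_1, 1.11 (0.903 to 1.36) for NEAT1_3 and 1.32 (0.920 to 1.90) for NEAT1_2, with intervals that all held 1. Reads on NEAT1 were thus crowded near its start in both libraries, and to a like degree: the 3 stretches held 13.2% and 13.03% of them in 1.69% of the length. If all NEAT1 reads were set on the short transcript of 3524 bases, the level would be 138 RPKM in the CDK14-sh library and 132 RPKM in the scramble library. NEAT1 would then stand below NORAD in the former and above it in the latter.

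In MALAT1, the entry AP000769.1 lies on the opposite strand, wholly inside the gene, over 1589 bases. It was at 38.1 RPKM (937 reads) in the CDK14-sh library and 52.0 RPKM (1424 reads) in the scramble library, 1.37-fold lower (1.26 to 1.49). Its level was 1.03 and 0.958 times that of MALAT1, and its reads amounted to 18.7% and 17.4% of those of MALAT1 in 18.1% of the length. AP000769.1 thus had nearly the level and the ratio of its host. Whether its reads came from MALAT1 was not tested.

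The entry mascRNA-menRNA joins the tRNA-like pieces of both RNAs, 57 bases in MALAT1 printed above and 58 bases at chr11:65445541-65445598, directly after the NEAT1 end. It had 6 reads (3.37 RPKM) in the CDK14-sh library and 24 reads (12.1 RPKM) in the scramble library, 3.60-fold lower with an interval from 1.43 to 10.8. It was the entry past 2-fold in the count above, and its reads cannot be divided between MALAT1 and NEAT1. Its level lay below those of MALAT1 and NEAT1 in both libraries. Whether an mRNA kit captures such short pieces once they are cut free was not tested.

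In TUG1, 4 same-strand entries cover 9.57% of the length and held 16.2% and 15.9% of the reads. TUG1_3 was at 35.2 RPKM in the CDK14-sh library and 28.9 RPKM in the scramble library, a ratio of 1.22 (0.940 to 1.57), and TUG1_1 at 18.7 and 23.6 RPKM, 1.26-fold lower (0.836 to 1.92). TUG1_2 was at 26.0 RPKM in both, and TUG1_4 at 26.1 and 26.3 RPKM. On the opposite strand RP3-430N8.10 reached 83.7 and 81.2 RPKM, a ratio of 1.03 (0.887 to 1.20), and RP3-430N8.11 reached 16.4 and 13.3 RPKM, a ratio of 1.24 (0.964 to 1.59). Both opposite-strand entries together had reads equal to 28.0% and 26.3% of those of TUG1 in 11.9% of its length. The intervals of all 6 held 1, as did that of TUG1. The 4 entries inside KCNQ1OT1 had 1 read together in the CDK14-sh library and 2 in the scramble library.

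**Figure D3:**
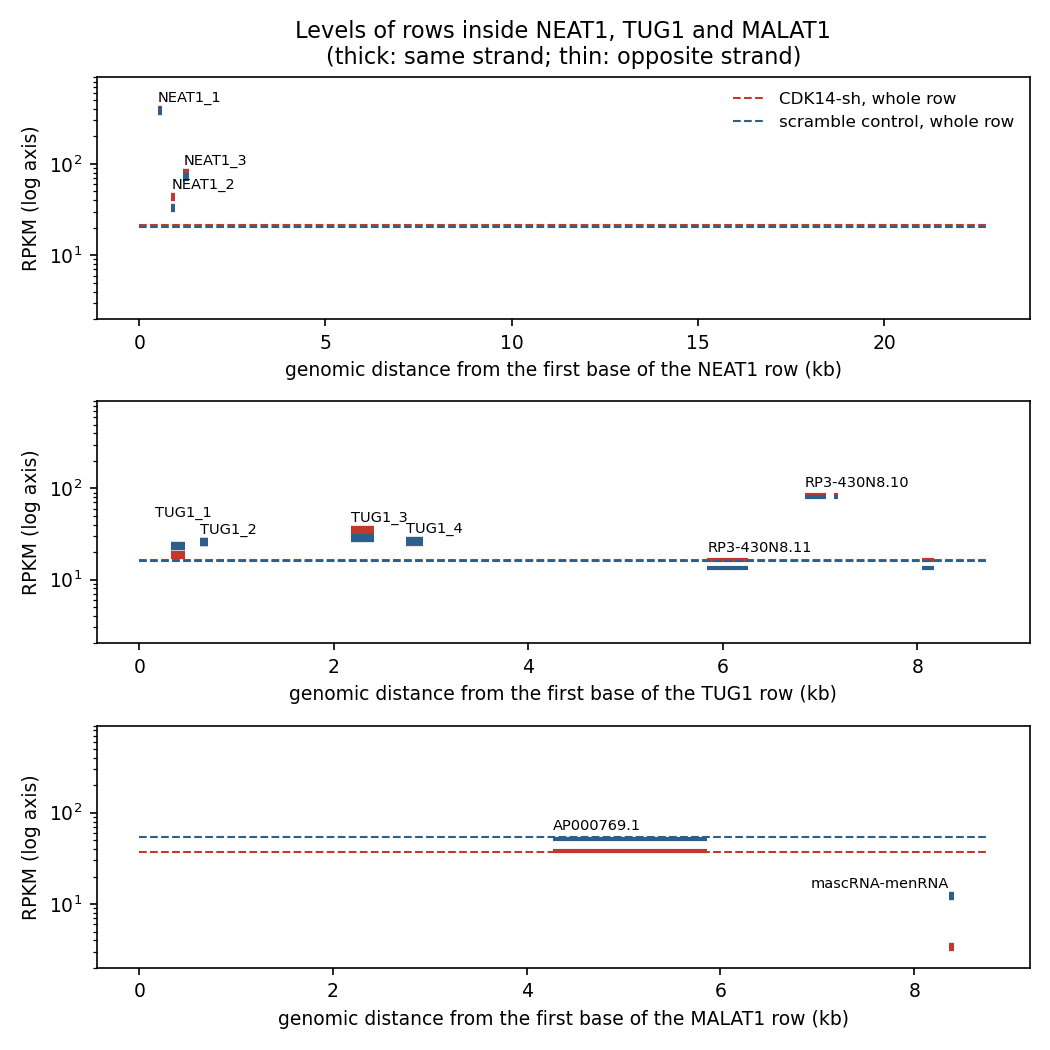
Level in RPKM (log axis) of the shorter entries inside NEAT1, TUG1 and MALAT1 against distance in kb from the first base of each gene, thick bars for the same strand and thin bars for the opposite strand, with dashed lines for the level of the whole gene in each library. NEAT1_1 stands at 393 and 381 RPKM above the NEAT1 level of 21.4 and 20.4, and the mascRNA-menRNA entry at 3.37 and 12.1 RPKM below that of MALAT1.

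**Figure D4:**
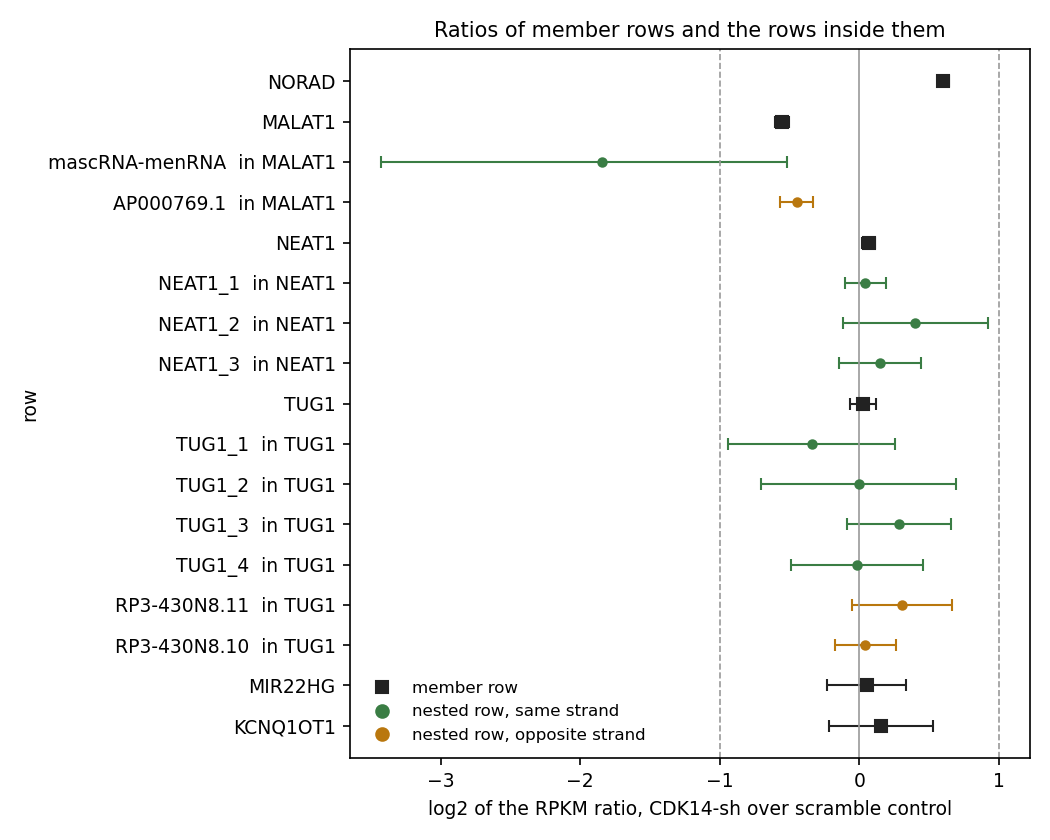
Log2 of the plain RPKM ratio, CDK14-sh over scramble, for 6 of the RNAs (squares) and the shorter entries inside them (circles, coloured by strand), with 95% counting intervals and dashed lines at 2-fold. NORAD lies right of 0, MALAT1 and its entries left of it, and the entries of NEAT1 and TUG1 have intervals that cross 0.

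The element that Pumilio proteins bind, TGTANATA, was counted on the sense strand of the longest annotated transcript of each RNA, with overlapping matches allowed. NORAD held 15 in 5339 bases, 2.81 per kb: TGTATATA 10 times, TGTAAATA 4 times and TGTACATA 1 time. Of 4531 transcripts within 25% of its length, NORAD included, 2 held as many, and 42.4% held any. NEAT1 held 6 in 22743 bases (0.264 per kb), TUG1 held 2 (0.268 per kb) and KCNQ1OT1 held 9 in 91667 bases (0.0982 per kb). MALAT1, MIR22HG and H19 held 0, where 62.9% of transcripts of the length of MALAT1 held any. A match is a description of the letters, not proof of a bound site.

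**Figure D5:**
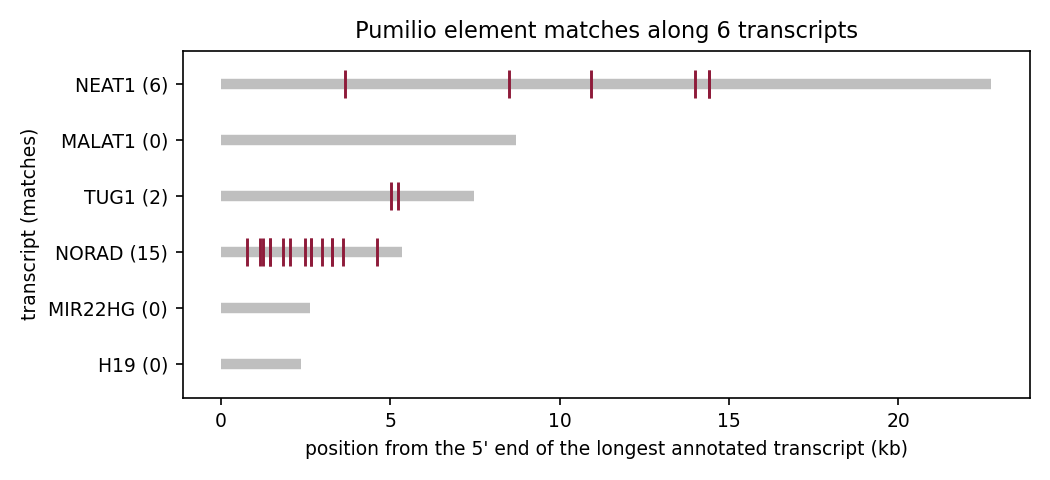
Matches to the Pumilio element along the longest transcript of 6 RNAs, as ticks at their distance in kb from the 5′ end. NORAD carries 15 matches, NEAT1 6 and TUG1 2, and MALAT1, MIR22HG and H19 none (0).

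Genes that work with these RNAs were read from lists. Their choice was not independent of earlier results of these data. For comparison, 54.7% of all measured entries had a log2 ratio above 0 and 45.3% one below 0, and among the 3660 well-read entries the shares were 48.2% and 51.8%. The shares past 2-fold are those given above, 3.21% higher and 3.47% lower over all measured entries. Of 11 genes listed as RNA repressors and proteins that bind NORAD, all 11 were measured, none (0) was past 2-fold and the median log2 ratio was -0.10. SAMD4B, an RNA-binding repressor, was at 8.83 RPKM in the CDK14-sh library and 4.79 RPKM in the scramble library, 1.84-fold higher (1.67 to 2.03), and its relative SAMD4A at 7.25 and 11.5 RPKM, 1.58-fold lower (1.48 to 1.69). TOP1, the DNA topoisomerase found with NORAD in the nucleus, was at 116 and 96.7 RPKM, and shares exon bases with another entry. The SAMD4 pair thus differed in opposite directions.

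Of 16 paraspeckle proteins all were measured, 11 had a log2 ratio below 0 and the median was -0.14, with 0 past 2-fold. The core proteins of the bodies did not share a direction. NONO was at 127 RPKM in the CDK14-sh library and 176 RPKM in the scramble library, 1.39-fold lower (1.35 to 1.42). SFPQ was at 116 and 146 RPKM, 1.26-fold lower (1.23 to 1.29), and PSPC1 at 32.1 and 24.8 RPKM, 1.30-fold higher (1.22 to 1.37). NEAT1 itself differed less than any of these 3. PSPC1 shares exon bases with another entry.

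Of 20 nuclear speckle proteins all were measured, 18 had a log2 ratio below 0, none (0) was past 2-fold and the median was -0.11, with medians from -0.26 to -0.06 over the rescalings. The largest differences were in SRSF2, at 63.7 and 79.6 RPKM, in SRSF1, at 164 and 202 RPKM, and in SRRM2, at 25.5 and 31.5 RPKM. The former pair are splicing factors of the SR family and SRRM2 helps to form the speckles. Each was between 1.23-fold and 1.25-fold lower in the CDK14-sh library, a smaller difference than the 1.47-fold of MALAT1. SRSF1, SRSF2 and SRRM2 share exon bases with other entries.

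Of 14 genes that form or protect the ends of MALAT1 and NEAT1, 13 were measured, 10 had a log2 ratio above 0, none (0) was past 2-fold and the median was 0.19. Over the rescalings this median ran from 0.04, under TPM, to 0.23. POP5, a protein subunit of RNase P, was at 6.07 RPKM (204 reads) in the CDK14-sh library and 3.50 RPKM (131 reads) in the scramble library, 1.73-fold higher (1.38 to 2.17). POP7, another subunit, was at 21.3 and 16.4 RPKM, 1.30-fold higher (1.10 to 1.53). ELAC1, of the family that trims tRNA ends, had 34 and 20 reads and lay below the level limit. ELAC1 shares exon bases with another entry.

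All 15 Polycomb and LSD1 genes were measured, with a median of -0.10 and 0 past 2-fold. PHF19, an accessory subunit of Polycomb complex 2, was at 5.71 RPKM in the CDK14-sh library and 7.39 RPKM in the scramble library, 1.29-fold lower (1.16 to 1.44). The histone-binding subunit RBBP7 was 1.25-fold lower (1.16 to 1.34), and the core subunit SUZ12 1.20-fold lower (1.12 to 1.29). RBBP7 shares exon bases with another entry.

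Of 20 genes listed in the imprinted band 11p15.5 around H19 and KCNQ1OT1, these RNAs included, 17 were found and 7 were measured. The median of those measured was 0.17, and over the rescalings it ran from 0.0145, under TPM, to 0.21. PHLDA2, at 58.7 and 52.3 RPKM, and NAP1L4, at 51.2 and 44.1 RPKM, were among those with a high level. IGF2, the growth factor gene next to H19, was at 2.75 RPKM (266 reads) in the CDK14-sh library and 6.41 RPKM (691 reads) in the scramble library, 2.34-fold lower (2.02 to 2.70). It was the 1 gene of the list past 2-fold in either direction. Its exons overlap those of INS-IGF2, IGF2-AS and AC132217.4, so part of its reads may count there or come from there. CDKN1C, a cell cycle inhibitor that KCNQ1OT1 silences on the paternal chromosome, had 6 and 15 reads. IGF2 RNA was therefore present in both libraries in which H19 had 0 reads.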

How the data were processed

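The authors deposited RPKM values of both libraries in 1 table, per the file headers, which also lists where the exons of each entry lie and their total length. The submitters' processing notes list Subread 1.5.1, featureCounts and Bowtie 0.12.2, along with 2 builds, mm8 and GRCh38; no role is stated. By name and overlapping place, 20594 entries matched GENCODE release 29 on GRCh38. Only these could be counted as long noncoding or protein-coding entries. Counting options (strand, overlap, multi-mapping) were not given in the sources used here. In each library every value, multiplied by its length, was a whole number of steps within 0.01 read (100% of values), so reads were recovered for the counting intervals. RPKM stayed the main value. The exons of 11992 entries overlap another entry.

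Python 3.11.15 with pandas 2.3.3 and scipy 1.17.1 was used. Level intervals are Clopper-Pearson, ratio intervals come from the exact conditional binomial, and intervals for ratios between members are on the log scale. Entries were counted from 2-fold at 1 RPKM or more in the higher library. The RNAs and the gene lists were chosen with earlier results of these data known. From each list the text names genes past 2-fold with at least 30 reads, otherwise the 3 with the largest ratio among genes with 30 reads; members, overlapping entries, CDK14 and the 6 of highest level in the list of other noncoding RNAs are named too. CDKN1C, PHLDA2, NAP1L4, HMOX1, the markers named and the entries that overlap IGF2 were added after their values were seen. The values of 1 listed gene are not reported here. Alternatives were other pseudocounts, level and read limits, scalings, thresholds, transcript lengths and entries without overlap. Ratios computed by the scripts were checked on simulated data. No library was left out.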

Additional observations from a re-analysis of the deposited data

How the results depend on the processing

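No paired analysis was possible because there is a single library on each side, and for the same reason none could be left out. Under TPM the log2 ratios were -0.71 for MALAT1, -0.0855 for NEAT1, -0.13 for TUG1 and 0.45 for NORAD. NORAD was at 0.56 after median centring, 0.56 with trimmed mean scaling and 0.64 without mitochondrial reads. List medians under TPM were -0.29 for paraspeckle proteins, -0.26 for speckle proteins, -0.25 for NORAD partners, -0.25 for Polycomb genes and 0.0572 for other long noncoding RNAs. At a 1.5-fold threshold 1 RNA, NORAD, was higher. With TPM, median centring or trimmed mean scaling it was not (0), and 1 RNA, MALAT1, was lower instead, an alternative added after seeing the data.

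Over all measured entries, 478 were 2-fold higher and 516 lower. With a pseudocount of 1 RPKM these were 176 and 259, without the level limit 2173 and 2043, at 5 RPKM or more 83 and 177, at 1.5-fold 1355 and 1421, among entries without overlap 307 and 315, and with at least 30 reads 166 and 290. Under TPM 609 were higher and 1128 lower, and without mitochondrial reads 622 and 536, which turns the balance. The limit of 1 was applied to the rescaled values, so the sets grew too. They held 17068 entries under TPM and 15564 without mitochondrial reads, beside 14878 in the main setting.

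Levels in TPM, CDK14-sh first, were 256 and 188 for NORAD, 61.1 and 99.7 for MALAT1, 35.3 and 37.5 for NEAT1, 27.0 and 29.4 for TUG1, 7.36 and 7.89 for MIR22HG, and 0.144 and 0.144 for KCNQ1OT1. Over the longest annotated transcript TUG1 was at 14.9 and 14.6 RPKM. Over the short transcript, an alternative chosen after seeing the data, NEAT1 was at 138 and 132 RPKM. MALAT1, NEAT1, TUG1 and KCNQ1OT1 have no value among entries without overlap, and MIR22HG and KCNQ1OT1 none at 5 RPKM or more. Depth limits H19 and KCNQ1OT1, which had 0 and 124 reads in each library.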

Other observations

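Other noncoding RNAs, mostly long but with some small RNA genes such as RN7SK, RN7SL1, RN7SL2 and MIR221, were read from a list of 67 symbols, of which 51 were found and 28 measured. Of these, 21 had a log2 ratio above 0 and the median was 0.25, beside 0.10 over all 465 measured long noncoding entries, and none (0) was past 2-fold. MIR503HG, the host of miR-503, was at 12.3 RPKM (334 reads) in the CDK14-sh library and 21.9 RPKM (662 reads) in the scramble library, 1.78-fold lower (1.56 to 2.04). EPB41L4A-AS1 was at 15.2 and 9.47 RPKM, 1.60-fold higher (1.44 to 1.79), and LINC00152 at 11.4 and 7.26 RPKM, 1.57-fold higher (1.39 to 1.78). Both share exon bases with another entry. RN7SK, which holds back the transcription elongation factor P-TEFb, was the highest of the list at 34.9 and 32.3 RPKM. It was followed by the MIR221 entry at 29.4 and 27.5 RPKM, RN7SL2 at 28.2 and 24.4 RPKM, BCYRN1 at 26.2 and 25.8 RPKM and RN7SL1 at 18.7 and 25.6 RPKM. These entries are 110 to 331 bases long, and how fully an mRNA kit captures such short RNAs was not tested.

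Genes beside the RNAs on the chromosome were read against all measured entries, of which 3.21% were 2-fold higher and 3.47% lower. With so few neighbours measured, their counts past 2-fold are not read as a property of the neighbours. Log2 ratios of those measured ran from -0.77 to 0.50 beside MALAT1 and NEAT1, and from -0.58 to 1.37 beside TUG1, NORAD, MIR22HG and MIR31HG. Of 17 listed beside MALAT1 and NEAT1, 10 were measured, with a median of 0.08 that turned to -0.07 under TPM, and 0 were past 2-fold. SLC25A45, a mitochondrial carrier gene near them, had 48 and 18 reads, a ratio of 2.97 (1.69 to 5.42), and stayed below the level limit. SLC25A45 shares exon bases with another entry. Of 36 listed beside TUG1, NORAD, MIR22HG and MIR31HG, 16 were measured with a median of -0.08, and SELM, a selenoprotein gene, was past 2-fold with 80 and 31 reads, 2.87-fold higher (1.87 to 4.50). In the HOXC cluster, which holds HOTAIR, 1 of 15 listed genes was measured, HOXC8 at 1.78 and 1.17 RPKM. HOXC6 had 46 and 21 reads, a ratio of 2.44 (1.42 to 4.30), below the level limit. Its exons overlap those of 4 other entries, HOXC4 and HOXC9 among them, so its reads may not be its own only.

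Of 20 p53 and stress genes 15 were measured, with a median of -0.06. CDKN1A, the p53 target that encodes the cell cycle inhibitor p21, was the 1 gene past 2-fold with 0.1 RPKM added, at 44.3 RPKM (2089 reads) in the CDK14-sh library and 21.6 RPKM (1133 reads) in the scramble library, 2.05-fold higher (1.91 to 2.21). HMOX1, the heme-degrading enzyme gene, had 18 and 44 reads, a plain ratio 2.20-fold lower (1.24 to 4.04), and its log2 ratio with 0.1 RPKM added was -0.99.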
